A study of Mus musculus with 4 samples.

Results

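Circular RNAs (circRNAs) whose locus overlaps no annotated gene were described in primary mouse articular chondrocytes with and without interleukin-1β (IL-1β). Of 40909 circRNAs in the whole data set, 309 (0.755%) were taken as lying outside genes. Of these, 293 on assembled chromosomes of mm10 overlapped no RefSeq gene on either strand. The other 16 lay on 4 unplaced scaffolds, which the gene table used here does not name, so their overlap with genes could not be tested. They held 10664 of 4278181 back-splice junction reads (0.249%). The rule used position alone and no measured level, though it was chosen with earlier results of these data known.

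The IL-1β group was 2 libraries of cells that had 24 h in the plate and then 24 h with human recombinant IL-1β (10 ng/ml). The control group was 2 libraries whose source label names no cytokine, although their protocol text repeats the treatment, so the group was taken from the source label. All 4 libraries came from passage 1 to 3 cells that had been frozen and thawed, and strain, sex and age are not given. Ribosomal RNA was depleted and linear RNA digested with RNase R before strand-specific sequencing. Junction reads per library were 895774 and 980542 with IL-1β and 1198010 and 1203855 in controls. No label ties a library to its own culture or animal, so every p-value rests on the spread between the 4 libraries, part of which may be technical.

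The cell type could be checked only through circRNAs inside marker genes. Of 11 chondrocyte markers, Hapln1, Sox5 and Sox6 hosted circRNAs (1318 reads), while Col2a1, Acan and Sox9 hosted none. The 1318 reads were 243 and 317 under IL-1β and 481 and 277 in controls. Of 6 fibroblast markers, 4 did (Col1a1, Col1a2, Col3a1 and Pdgfra), with 80 and 65 reads under IL-1β against 167 and 241 in controls, and their part in the results was not tested. Of 4 osteoblast markers Runx2 did (1527 reads), a factor also present in maturing chondrocytes. It had 336 and 360 reads under IL-1β and 320 and 511 in controls. These marker reads are not scaled to library depth, which was higher in controls. None of 4 macrophage markers hosted a circRNA. The single endothelial marker with one had 8 reads and the single muscle marker 7. A gene without a circRNA may still be expressed, and in bulk RNA fewer cells of a type and less RNA per cell cannot be told apart.

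A circRNA forms when the splicing machinery joins a donor site to an acceptor upstream of it, a reaction called back-splicing, and the closed loop resists RNase R. Most known circRNAs consist of exons of coding genes. A circle outside all annotated genes has no host gene to name, and the junction reads do not show which transcript it was cut from. IL-1β is an inflammatory cytokine that makes cultured chondrocytes break down their matrix and is used to model osteoarthritis.

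The reference tables hold short windows before gene starts, and 2 of the 309 circles reached into one. They are shown because they let the bases at a junction be read. Sequences are from RefSeq on GRCm38.p6, 5′ to 3′ on the gene's strand, with bases inside the circle in capitals and 40 bases beyond the junction in lower case. The first window, chr19:7019646-7019719 on the minus strand, lies ahead of Fermt3, which encodes the integrin activator kindlin-3. circRNA.17420 (chr19:7019686-7019968, minus strand, 217 bp from Fermt3) was read 4 times, in control 1. The second window, chr6:31220101-31220240 on the plus strand, lies ahead of the lncRNA gene 2210408F21Rik. circRNA.32354 (chr6:31218963-31220200, minus strand) runs opposite to that gene, 151 bp away, and was read 6 times, in control 2.
Fermt3 window: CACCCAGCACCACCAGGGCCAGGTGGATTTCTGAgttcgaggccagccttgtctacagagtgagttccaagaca
2210408F21Rik window: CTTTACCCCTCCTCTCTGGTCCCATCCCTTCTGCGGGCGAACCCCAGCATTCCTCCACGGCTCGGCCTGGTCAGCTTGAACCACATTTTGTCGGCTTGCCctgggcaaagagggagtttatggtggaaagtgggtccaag

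In the Fermt3 window the capitals are followed by gt, the donor signal of an intron, on the circle's own strand. In the 2210408F21Rik window they are followed by ct, which reads ag, the acceptor signal, on the circle's strand. Over all 40909 circRNAs, 467 junction ends fell inside such windows. Of these, 458 (98.1%) had GT after a donor end or AG before an acceptor end. For the other members no genome sequence was used here. The acceptor end of circRNA.32354 was shared with 2 circles that overlap Lncpint, a p53-induced lncRNA on the same strand.

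For 12 circles the nearest gene was a microRNA gene. Mature sequences from microRNA genes next to or between such circles are shown with the seed, bases 2 to 8, in capitals. circRNA.19119 (chr1:23269579-23272221, plus strand, 9 reads in IL-1β 2) ended 48 bp from Mir30a, the shortest distance to a microRNA gene. circRNA.12353 (chr16:77594622-77596959, plus strand; 12, 0, 3 and 0 reads in IL-1β 1, IL-1β 2, control 1 and control 2) ended 1977 bp before Mir99a on its strand. Past Mir99a and Mirlet7c-1 come Mir125b-2 and, 84455 bp farther, circRNA.12354, the most-read circle whose nearest gene was a microRNA. circRNA.10463 on chromosome 15 lay 3724 bp from Mir30d, with 12 reads in control 2, and 2 loci on chromosome 7 flank Mir344i. The 5 seeds differ from each other. The levels of these microRNAs were not analysed here.
miR-30a-5p: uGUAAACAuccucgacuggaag
miR-99a-5p: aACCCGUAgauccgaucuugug
let-7c-5p: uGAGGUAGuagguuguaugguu
miR-125b-5p: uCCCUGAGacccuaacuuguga
miR-344i: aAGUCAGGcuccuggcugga

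The reads of circRNAs outside genes gathered in few places, while many of the circles stood alone. Joining circles that overlap on 1 strand gave 183 loci, 151 of them with a single circle and 32 with 2 or more, and the latter held 158 circRNAs. The 3 loci with most reads carried 52.3% of the reads of all 309 circRNAs and the 10 with most reads carried 76.8%. A locus on chromosome 11 between Grb10 and Cobl held 2284 reads, a locus on chromosome 17 beside an 18S ribosomal RNA pseudogene held 1951, and the single circle on scaffold GL456216.1 held 1343.

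The median distance to the nearest gene was 10591 bp, from 16 to 221453 (n = 293). Under 1 kb from a gene lay 58 circRNAs with 1887 reads, at 1 to 10 kb 86 with 2518 reads, at 10 to 100 kb 133 with 4168 reads, and at 100 kb or more 16 with 148 reads. The nearest was circRNA.13532, 16 bp from Cnpy3 on the same strand, with 3 reads in control 2. The farthest was circRNA.14756, 221453 bp from the pseudogene Gm6764, with 14 reads in IL-1β 2. On scaffolds no distance could be measured. The chromosome 17 locus supplied 56 circles within a few kilobases of one gene, and without it the median distance was 18538 bp.

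**Figure D1:**
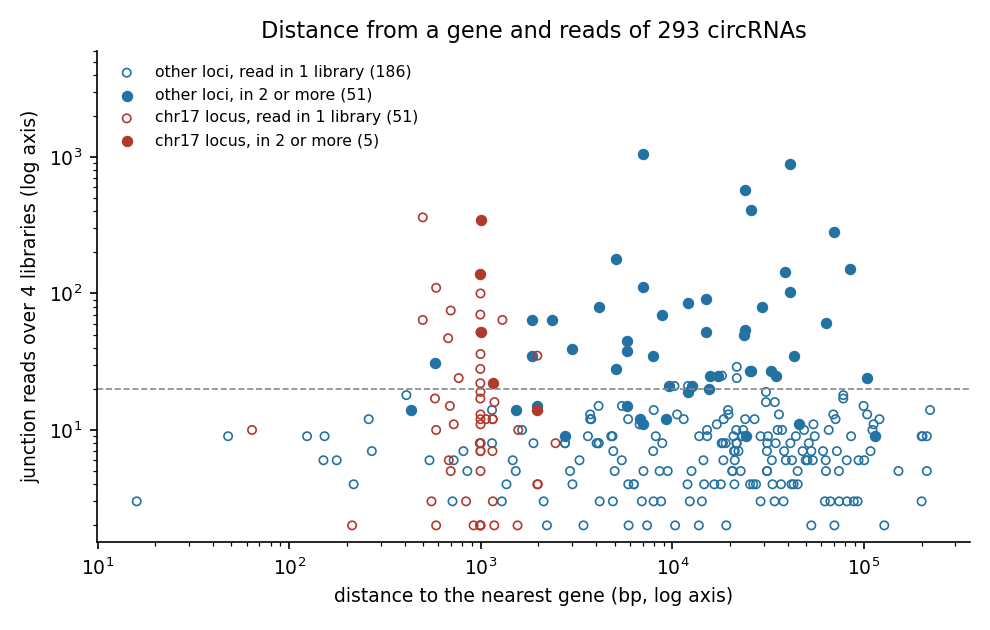
Each point is 1 of the 293 circRNAs outside genes on assembled chromosomes, by distance to the nearest gene in bp and junction reads summed over 4 libraries, both on log axes. Open points were read in 1 library, filled points in 2 or more, red points belong to the chromosome 17 locus, and the dashed line marks the 20 reads needed to enter the test. Circles with over 100 reads occur from 498 bp to 84455 bp from a gene.

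By span, the distance from start to end on the genome, circRNAs outside genes had a median of 6617 bases (196 to 161409) against 10600 for the 40600 circRNAs that overlap a gene. The share spanning under 2 kb was 33.3% against 10.9%. Without the chromosome 17 locus the median was 9086 and the share 19.0%. The longest was circRNA.10372 on chromosome 15 near Pvt1, spanning 161409 bases, with 11 reads in control 2. These figures describe the circles and no test was made over them.

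Strand was compared with the nearest coding gene for circles outside the chromosome 17 locus. Within 10 kb of a coding gene of known strand, 30 of 40 lay on its strand, and at any distance 113 of 184 did (61.4%). For circles inside a single host gene the share was 99.6% of 31669. By shared junction ends, 133 of the 309 (43.0%) shared a start or end with another circle outside genes, 32 (10.4%) with a circle that overlaps a gene, and 158 with neither. Of circRNAs overlapping a gene, 77.6% shared an end with another such circle.

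The 32 circles that shared an end with a gene-overlapping circle held 3723 reads and lay in 21 loci. For 22 of them a partner overlapped a gene known to lie on their own strand. The rest include circles whose partners overlap only genes of unknown strand. On chromosome 10, circRNA.1846 (chr10:82383763-82405166, plus strand; 14, 13, 36 and 16 reads in IL-1β 1, IL-1β 2, control 1 and control 2) shared its end with circRNA.1843, which starts inside Gm4924 on the same strand. circRNA.5286 (64 reads), between Tc2n and Fbln5 on chromosome 12, shared its end with a Tc2n circle. Near Ppara, which encodes the nuclear receptor PPARα, circRNA.10947 shared its start with circRNA.10948 (180 reads), which runs into Lncppara.

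Most circRNAs outside genes were read in a single library. Of 309, 244 (79.0%) had reads in 1 library, 37 in 2, 11 in 3 and 17 in all 4 (5.50%). For circRNAs that overlap a gene, 58.4% had reads in 1 library and 16.9% in all 4. Totals were lower outside genes, with a median of 9 reads against 13, but at matched totals of at least 20 and under 200 reads 31.0% were in 1 library outside genes (11.9% without the chromosome 17 locus) against 9.52%. The 17 circles in all 4 libraries carried 55.1% of the reads. The single-library circles split about evenly, 52 in IL-1β 1, 66 in IL-1β 2, 64 in control 1 and 62 in control 2.

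**Figure D2:**
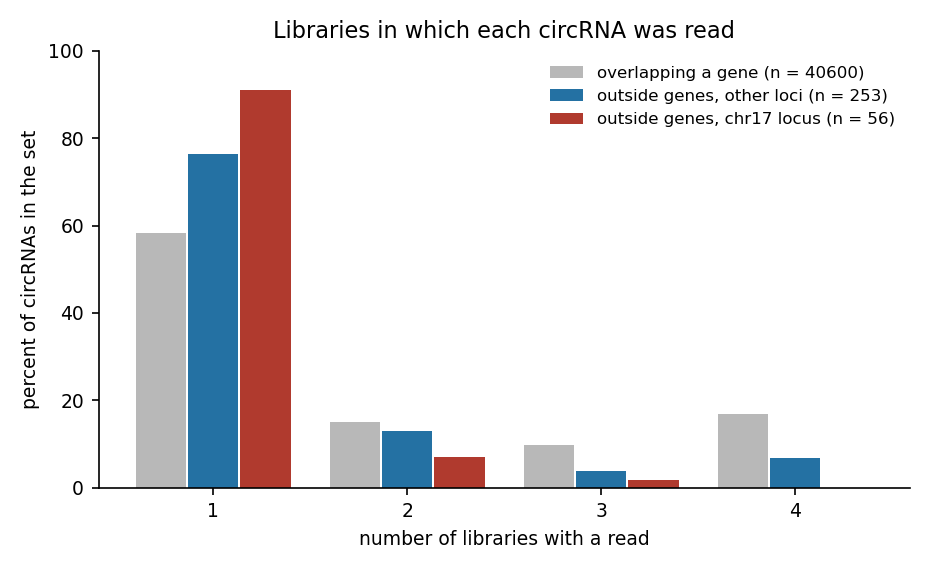
Bars give the percent of circRNAs in each set (y axis) read in 1, 2, 3 or 4 libraries (x axis). Of the chromosome 17 circles 91.1% were read in 1 library and none in 4, against 58.4% and 16.9% for circRNAs that overlap a gene.

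Circles outside genes took a smaller share of junction reads in the IL-1β libraries. The share was 0.203% and 0.216% with IL-1β and 0.241% and 0.319% in controls, a mean of 0.210% ± 0.00921 (SD, n = 2) against 0.280% ± 0.0554 (n = 2). The groups did not overlap, the share was 1.33-fold lower with IL-1β (log2 -0.42), and the exact two-sided permutation test gave p = 0.333, the smallest that 2 against 2 libraries allow. Control 2 stood highest: without it the difference was 1.15-fold. Circles at least 10 kb from a gene held 0.0957% and 0.0917% with IL-1β against 0.0933% and 0.120% in controls, which overlap. That set also leaves out all scaffold circles, which have no distance.

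By place, the chromosome 17 locus took 0.0249% and 0.0361% of junction reads with IL-1β against 0.0319% and 0.0824%, so its excess lay in control 2. The chromosome 11 locus took 0.0481% and 0.0429% against 0.0534% and 0.0658%, and the scaffolds 0.0348% and 0.0298% against 0.0508% and 0.0606%. Both were lower in each IL-1β library than in each control. The 224 remaining circles took 0.0954% and 0.107% against 0.104% and 0.110%, which overlap.

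**Figure D3:**
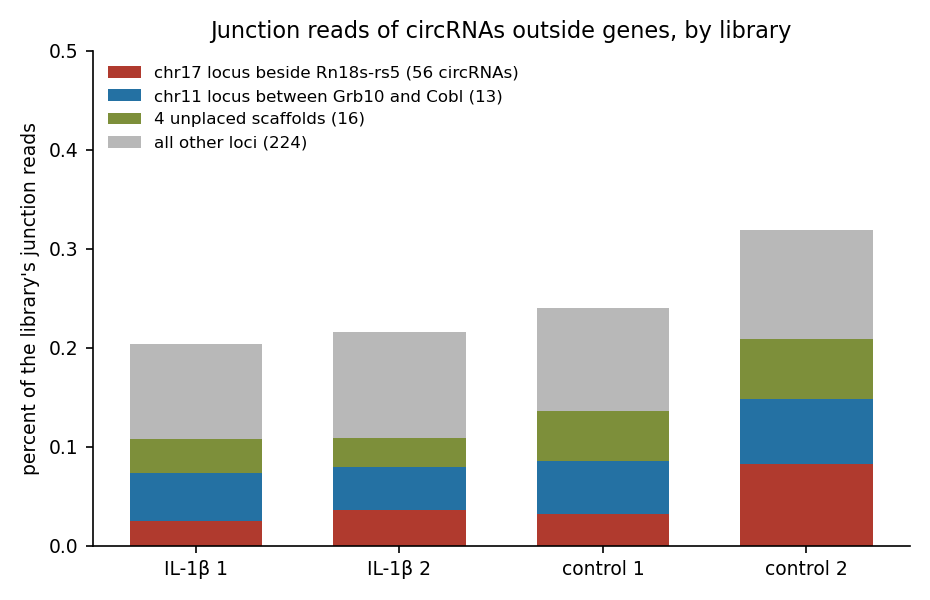
Stacked bars give the percent of each library's junction reads (y axis, from 0) carried by circRNAs outside genes in the 4 libraries (x axis), split by place. Totals run from 0.203% in IL-1β 1 to 0.319% in control 2, and the red chromosome 17 part is tallest in control 2.

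The number of different circles did not follow the reads. In all, 89 and 111 were detected with IL-1β and 110 and 109 in controls, or 0.504% and 0.575% against 0.532% and 0.607% of all circRNAs detected in the library. The groups overlapped (log2 -0.08, exact permutation p = 0.667), and the sign turned for circles at least 1 kb from a gene (log2 0.06), at least 10 kb from a gene (log2 0.31) and on assembled chromosomes alone (log2 0.02). It also turned when detection needed 5 reads (log2 0.01), without IL-1β 1 (log2 0.01) and without control 2 (log2 0.02). The sets by distance hold no scaffold circles. In reads, 137 circles had reads in controls alone and 123 in IL-1β libraries alone. The 244 circles read in a single library enter these counts by definition. The same counts over all circRNAs were not made, so no difference from them can be read here. The median distance to a gene of the circles detected was 17478 and 14799 bp under IL-1β against 9398 and 6647 bp in controls. Without the chromosome 17 locus it was 21325 and 19524 against 13241 and 15210 bp, a difference that was not tested.

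With at least 20 reads over the libraries, 67 circles outside genes entered edgeR's quasi-likelihood test over all 15333 such circRNAs, and 0 passed an adjusted p of 0.05, where 0.0196% of all tested did. The 67 that entered are not the 309. At an unadjusted p under 0.05, edgeR gave 5 of 67, against 3.44% of all tested. Of these, 1 was higher (circRNA.13402), against 1.83% of all tested, and 4 were lower (circRNA.13380, circRNA.13383, circRNA.3023 and circRNA.40577), against 1.62%. DESeq2 called 2 of the 67 (circRNA.13380 and circRNA.40577), against 106 of all 15333. It gave 12 of the 67 at an unadjusted p under 0.05, against 1379 of all 15333, and left the adjusted p of 32 of the 67 undefined. The threshold separates totals of 20 (circRNA.7347) and 19 (circRNA.835). The estimated change was below 0 for 45 of 67, against 51.7% of all tested, with a median log2 of -0.96 against -0.05. The median of the members tested ran from -6.22 without IL-1β 2 to -0.49 without control 2. With no read minimum, over all 309, the estimate was below 0 for 165 (53.4%), against 51.7% of all 40909. Without the chromosome 17 locus it was below 0 for 31 of 49, with a median of -0.53. Many of these medians rest on circles with 0 reads in a group: 26 of the 67 had 0 in both libraries of one group. Both IL-1β libraries lay below both controls in 13 of 67, against 17.2% of all tested, and above in 5, against 16.4%.

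Summed by locus, 39 loci with at least 20 reads were tested with edgeR beside 5104 loci and host genes in all, and 0 passed, where 0% of all tested did. At an unadjusted p under 0.05 edgeR gave 1 of 39, against 4.41%. It was lower, as 2.35% of all tested were, and 0 were higher, against 2.06%. DESeq2 called 1 of the 39 loci, the one on scaffold JH584304.1, against 61 of all 5104. It gave 6 of the 39 at an unadjusted p under 0.05, against 551 of all 5104. The estimate was below 0 in 29 of 39 loci, against 51.7%, with a median log2 of -0.55. Over all 183 loci with no read minimum it was below 0 in 94 (51.4%), against 51.6%, with a median of -0.048. Both IL-1β libraries lay below both controls in 11, against 18.6%, and above in 6, against 17.2%.

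**Figure D4:**
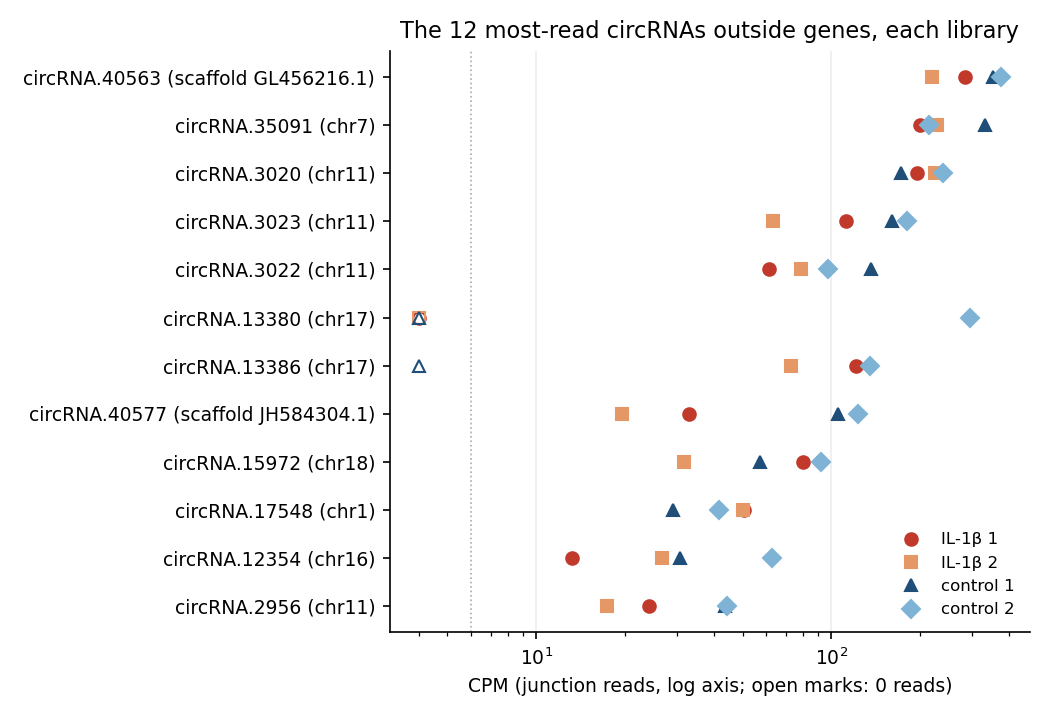
Each mark is the level of a circRNA in 1 library, in CPM (junction reads scaled to a library of 1000000) on a log axis, for the 12 most-read circRNAs outside genes. The IL-1β marks lie left of both controls for circRNA.40563, circRNA.3023, circRNA.3022, circRNA.40577, circRNA.12354 and circRNA.2956, and circRNA.13380 has reads in control 2 alone. For circRNA.17548 the IL-1β marks lie right of both controls. Over all tested circRNAs, both IL-1β libraries lay below both controls in 17.2% and above in 16.4%.

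The chromosome 11 locus (chr11:12075997-12212680, plus strand) fills much of the gap between Grb10 and Cobl. Grb10 is an imprinted gene for an adaptor protein of insulin receptor signalling, and Cobl encodes the actin nucleator cordon-bleu. Both genes lie on the minus strand, at chr11:11930499-12037428 and chr11:12236676-12465022, so the circles run opposite to them. The 13 circles used 5 starts and 7 ends. The start at 12187974 belonged to 5 circles with 1887 reads, and the end at 12195334 to 4 with 1032 reads.

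circRNA.3020 (chr11:12187974-12195334) was the most-read circle of this locus, with 178 and 219 reads with IL-1β against 202 and 293 in controls. Its level was 210 ± 20.4 CPM under IL-1β and 206 ± 47.3 CPM in controls (SD, n = 2 each), where CPM is junction reads scaled to a library of 1000000 with edgeR's TMM factors, and the groups overlapped. circRNA.3023 (chr11:12187974-12212680) uses the same start and a later end. It had 102 and 62 reads with IL-1β against 188 and 221 in controls, both IL-1β libraries below both controls. The level was 87.8 ± 34.3 against 171 ± 14.1 CPM, a log2 change of -0.96 ± 0.39 (SE; edgeR adjusted p = 0.886).

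circRNA.3022 (chr11:12187974-12210940) also starts there, and had 56 and 77 reads with IL-1β against 159 and 119 (log2 -0.73 ± 0.39; edgeR adjusted p = 0.886). Whether the circles of this start differ from each other in their change was not tested. circRNA.2956 (chr11:12093134-12127255) had 22 and 17 reads against 51 and 54 (log2 -1.07 ± 0.69; edgeR adjusted p = 0.886). Its IL-1β libraries lay below the controls. circRNA.3017 (chr11:12185507-12210940) went the other way, with 7 and 20 reads with IL-1β against 0 in both controls. Its IL-1β level was 5.65-fold a floor of 3 reads per library in controls. It reached the read minimum through the IL-1β libraries alone. The longest circle tested, circRNA.2933 (span 119337 bases), was read in control 2 alone, 29 times.

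Summed over its 13 circles, the locus had 431 and 421 reads with IL-1β against 640 and 792 in controls. The level was 449 ± 31.6 against 605 ± 97.9 CPM (log2 -0.43 ± 0.23; edgeR adjusted p = 0.885). Every IL-1β library lay below every control, and the change did not pass. On the same strand, 7 circles with 238 reads start within the locus and end inside Cobl, opposite to that gene. The chief of them, circRNA.3026, had 132 reads and shares the start at 12187974.

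The chromosome 17 locus (chr17:39843297-39846290, plus strand) held 56 circles in 2993 bases, all ending 64 to 2456 bp before Rn18s-rs5 (chr17:39846354-39848202), annotated as a pseudogene of 18S ribosomal RNA. In ribosomal RNA genes the 18S part is preceded by a transcribed spacer that is removed during processing. The libraries were depleted of ribosomal RNA, and the extent of that removal in each was not analysed here. The circles used 36 starts and 30 ends and spanned 196 to 2060 bases, with a median of 1122. One end, at 39845357, was used by 16 circles with 680 reads.

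Of the 56, 51 were read in 1 library, none in all 4. circRNA.13380 had 0, 0, 0 and 361 reads in IL-1β 1, IL-1β 2, control 1 and control 2. circRNA.13402 had 100 reads in IL-1β 2 alone, circRNA.13382 had 47 there alone, and circRNA.13383 and circRNA.13387 had 110 and 75 in control 1 alone. circRNA.13386, with 110, 71, 0 and 165 reads, was absent from control 1. These circles give 3 of the 5 circRNAs under an unadjusted p of 0.05, each from 1 library. Their fitted changes depend on that library and are not given.

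**Figure D5:**
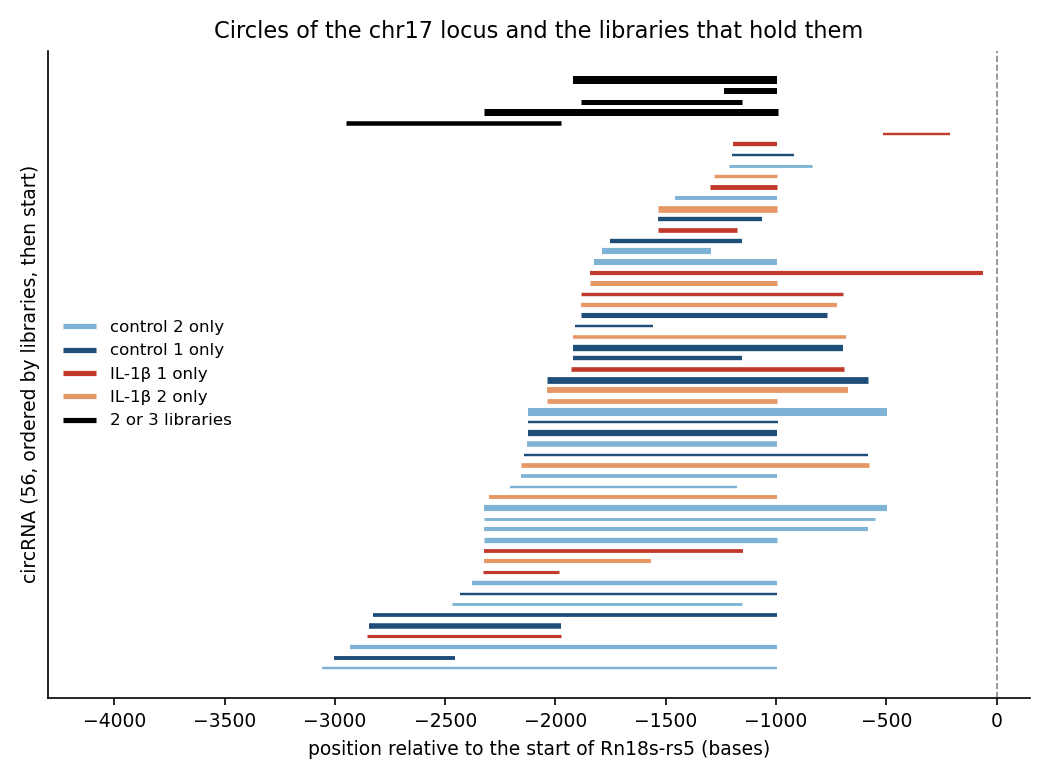
Each line is 1 of the 56 circles of the chromosome 17 locus, from start to end, in bases relative to the start of Rn18s-rs5 (dashed line, at 0). Colour gives the library or libraries with reads and thickness grows with the reads, and 51 of the 56 lines carry the colour of a single library.

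Summed, the chromosome 17 locus had 223 and 354 reads with IL-1β against 382 and 992 in controls. Its level was 301 ± 81.3 against 582 ± 371 CPM (log2 -0.95 ± 0.43; edgeR adjusted p = 0.885). Control 2 was far above the other 3 libraries, and without it the log2 change was -0.067. In CPM, IL-1β 2 (359) exceeded control 1 (320), so the groups overlapped.

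The unplaced scaffolds held circles at high levels. circRNA.40563 (GL456216.1:31059-34831, plus strand) was the most-read circle outside genes, with 259 and 214 reads with IL-1β against 412 and 458 in controls. The level was 252 ± 46.2 against 364 ± 15.7 CPM, both IL-1β libraries below both controls (log2 -0.53 ± 0.27; edgeR adjusted p = 0.886). No other circle lay on its scaffold.

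On scaffold JH584304.1 lay 12 circRNAs with 462 reads, 9 of which overlap on the plus strand (JH584304.1:4978-44310). The gene table gives LOC100861749, at 4567 to 52729 of a sequence it does not name, and 10 of the 12 circles would fall in that range if it lay on this scaffold. The chief circle, circRNA.40577 (JH584304.1:38115-44310), had 30 and 19 reads with IL-1β against 123 and 150 in controls. The level was 26.2 ± 9.55 against 114 ± 12.4 CPM, 4.35-fold lower (log2 -2.12 ± 0.48; edgeR adjusted p = 0.886; DESeq2 adjusted p = 0.00415; over all alternatives 0.00415 to 1.00).

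The other 8 circles of the locus were read in controls alone, with 29 and 82 reads. Among them, circRNA.40578 had 6 and 16 reads in controls, and circRNA.40580 had 15 and 4. Of these 8 circles, 5 were read in 1 library, which puts them in 1 group by definition. Of all 309 circles outside genes, 137 were read in controls alone and 123 with IL-1β alone. The same counts were not made over all circRNAs. Summed, the locus had 30 and 19 reads with IL-1β against 152 and 232 in controls, or 26.0 ± 9.59 against 162 ± 49.7 CPM, 6.23-fold lower. The log2 change was -2.64 ± 0.50 (edgeR adjusted p = 0.67), which did not pass. With each library left out in turn it ran from -3.07 to -2.26. DESeq2 gave an adjusted p of 2.15e-05, and edgeR with a minimum of 10 reads gave 0.00137, and over all alternatives the adjusted p ran from 2.15e-05 to 1.00.

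On 2 other scaffolds the order differed. circRNA.40567 (GL456221.1:47169-53273) had 23 and 35 reads with IL-1β against 0 and 12 in controls, or 30.6 ± 7.49 against 4.91 ± 6.95 CPM (log2 2.61 ± 1.88; edgeR adjusted p = 0.886). Both IL-1β libraries lay above the controls. The estimate fell to log2 1.60 without control 1, while without control 2 it was set against a control at 0 and is not given. circRNA.40571 (GL456233.1:272714-285515) had 0 and 16 reads against 26 and 15, and its groups overlapped.

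On chromosome 7, circRNA.35091 (chr7:41611676-41613251, plus strand) was the second most-read circle, with 182 and 222 reads with IL-1β against 388 and 262 in controls. Its level was 214 ± 19.4 against 273 ± 83.2 CPM, and the groups overlapped (log2 -0.35 ± 0.32; edgeR adjusted p = 1.00). It lies 7029 bp from the lncRNA gene Gm51480, which is on the minus strand, and 20280 bp before the zinc finger gene Zfp788, on the circle's own strand.

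Farther along chromosome 7, 2 loci on the minus strand flank Mir344i and lie in a region whose next coding gene is Ndn, the imprinted gene for necdin. circRNA.35348 (chr7:62063933-62070616) had 40 and 35 reads with IL-1β against 26 and 11 in controls. The level was 39.9 ± 5.72 against 15.6 ± 9.37 CPM, both IL-1β libraries above the controls (log2 1.35 ± 0.86; edgeR adjusted p = 0.886). It was log2 0.84 without control 2 and 2.11 without control 1. On the other side of Mir344i, 8 circles (chr7:62091114-62193593) had 41, 85, 81 and 95 reads in IL-1β 1, IL-1β 2, control 1 and control 2, with overlapping groups. Among them, circRNA.35358 (span 93211 bases) had 17 and 10 against 11 and 14 reads. circRNA.35361 had 8 and 16 reads with IL-1β against 0 in both controls (edgeR adjusted p = 0.886). Its IL-1β level was 5.05-fold the floor used for a group with 0 reads, which is not a lower bound. circRNA.35361 reached the read minimum through the IL-1β libraries alone. Across both loci, 17 circles with 599 reads on the same strand overlap a Mir344 gene or its neighbours, and the largest, circRNA.35350 (178 reads), shares its start with circRNA.35348.

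circRNA.12354 (chr16:77730798-77741153, plus strand) lay 84455 bp past Mir125b-2, in the direction of its transcription. It had 12 and 26 reads with IL-1β against 36 and 77 in controls. The level was 19.9 ± 9.52 against 46.9 ± 22.8 CPM, with the IL-1β libraries below the controls (log2 -1.23 ± 0.78; edgeR adjusted p = 0.886). It was log2 -0.62 without control 2 and -1.85 without IL-1β 2.

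circRNA.17548 (chr1:105456022-105456567, plus strand, 545 bases) had 46 and 49 reads with IL-1β against 34 and 51 in controls. In CPM the IL-1β libraries lay above, at 50.4 ± 0.240 against 35.4 ± 8.94 (log2 0.51 ± 0.56; edgeR adjusted p = 1.00). circRNA.15972 on chromosome 18, 69561 bp from the pseudogene Gm6409, had 73 and 31 reads with IL-1β against 67 and 113 in controls, and its groups overlapped.

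Of the smaller loci with several circles, the one beside B3gnt2, a glycosyltransferase gene (chr11:22790317-22817801, minus strand, 5 circles), had 56 and 42 reads with IL-1β against 41 and 29 in controls. In CPM this was 51.9 ± 13.2 against 29.5 ± 6.81, with the IL-1β libraries above (log2 0.81 ± 0.68; edgeR adjusted p = 0.987). The locus before Lncppara (chr15:85675260-85701020, plus strand, 5 circles) had 2, 28, 32 and 35 reads, low in IL-1β 1 alone. On chromosome 5, 3 circles (chr5:58604410-58712087) had 6 and 23 reads with IL-1β against 0 in both controls, 6.04-fold a floor of 3 reads per library. On chromosome 3, 3 circles (chr3:49132367-49244706) had 22 and 13 reads in controls and 0 in both IL-1β libraries, with the control level 4.55-fold that floor. Each circle of these last 2 loci was read in 1 library. Both loci reached the read minimum through 1 group alone, and folds against a floor leave out the counting error of the reads seen.

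For 3 further circles named for their distance or span, the larger SD between libraries of a group exceeded the difference between the group means. circRNA.35818, 63399 bp from Tenm4, had 0, 22, 0 and 39 reads. circRNA.8273, 42943 bp from Gm23459, had 10, 0, 0 and 25. circRNA.1898, spanning 63955 bases beyond D10Wsu102e, had 3, 4, 3 and 25. For none of these 3 was a difference between the groups detectable at this depth.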

How the data were processed

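Back-splice junction reads were analysed in 4 libraries, 2 per group. The file headers show whole-number counts of junction reads, which the authors deposited per library beside SRPBM, a depth-scaled signal that the authors deposited and that served here only as another depth. The submitters' processing notes name mm10 and Bowtie2. Which program called the circRNAs, and with which filters, is not given in the sources used here. All single-sample tables held the values of the series table.

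A circRNA counted as outside genes where its interval overlapped none of 49632 RefSeq genes (GRCm38.p6) on assembled chromosomes. Another 365 entries lie on scaffolds or patches that the table does not name, 17 of them with no chromosome, and were left out, so scaffold circRNAs were included without a test of overlap. Starts and ends are counted from 1. Circles overlapping on 1 strand were joined to loci. The members and lists were chosen with earlier results of these data known.

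Counts with at least 20 reads over the libraries were compared over the whole table by the quasi-likelihood test of edgeR 4.0.16 (R 4.3.3, TMM factors, Benjamini-Hochberg adjustment at 0.05). The test was tried on simulated data. SE is the log2 change divided by the root of F. Levels are CPM with TMM factors. Shares of reads were compared by an exact two-sided permutation test that listed every split of the libraries, in Python 3.11.15. Where a group had 0 reads, the fold sets the mean of the other group against a floor of 3 reads per library. Such folds leave out the counting error of the reads seen and are not lower bounds. PCR reads are also not independent molecules. Circles named were the 12 with most reads, 5 per direction with the lowest p, the 5 farthest from a gene and the 3 longest with at least 20 reads, and the 6 on scaffolds with most reads; loci were the 6 with most circles, the 5 with most reads and 3 per direction with the lowest p. Others were named after their values were seen. Alternatives were a replicate block, DESeq2 1.42.0, other scalings and read minimums, stricter distances and each library left out. Stricter distances also left out the scaffold circles, which have no distance.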

Additional observations from a re-analysis of the deposited data

How the results depend on the processing

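Each group had 2 libraries, most circles were read in 1 library, and what limited the number of calls was not tested. The replicate numbers did not pair the libraries (correlation of deviations -0.00). With the replicate block edgeR called 1 circle (circRNA.13380, read in control 2 alone) and 1 locus (JH584304.1, log2 -2.63, adjusted p = 0.00172), with 2 loci at an unadjusted p under 0.05. Over all tested, that setting called 61 of 15333 circRNAs and 19 of 5104 loci and host genes. Of the 5104, 270 had an unadjusted p under 0.05. DESeq2 called 2 circles and 1 locus (12 and 6 at an unadjusted p under 0.05), and gave circRNA.40577 a log2 of -2.13. Over all tested it called 106 circRNAs and 61 loci and host genes (1379 and 551 at an unadjusted p under 0.05). A minimum of 10 reads, like no minimum beyond 1 read, gave 3 circles called (11 at an unadjusted p under 0.05) and 1 locus (2). They were circRNA.13380, circRNA.13383 and circRNA.13402, each read in 1 library, and JH584304.1. These 2 fits held 141 and 309 circles outside genes and 80 and 183 of their loci. Over all tested, 10 reads gave 66 of 24568 circRNAs called (873 at an unadjusted p under 0.05) and 15 of 6232 loci and host genes (347). No minimum gave 61 of 40909 circRNAs (856) and 13 of 8146 loci and host genes (345). SRPBM depth and a minimum of 100 reads each gave 2 loci (of 39 and 13) at an unadjusted p under 0.05. Over all tested these settings gave 194 of 5104 and 190 of 2996 loci and host genes. SRPBM depth moved the median log2 of all tested circRNAs from -0.05 to -0.28. With 1 library left out, calls stayed at 0 and counts at an unadjusted p under 0.05 ran from 3 to 6 for circles and from 1 to 3 for loci. Circles at least 1 kb or 10 kb from a gene gave 1 such circle, and leaving out the chromosome 17 locus gave 2, a setting chosen after seeing the data. The sets by distance also leave out the scaffold circles, circRNA.40577 among them.

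The read share kept its sign, from log2 -0.60 without control 1 to -0.20 without control 2. The detection share did not: log2 was 0.061 at 1 kb or more, 0.31 at 10 kb or more, 0.025 on assembled chromosomes, 0.0076 with a minimum of 5 reads, and -0.18 to 0.019 with 1 library left out. Median span was 9087 at 1 kb or more, 11056 at 10 kb or more, 9086 without the chromosome 17 locus and 5269 at 20 reads or more. Median distance was 18978, 33056 and 18538 under the first 3 of these.

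Of 398 values of named circles and loci under alternatives, 13 newly passed, 12 turned in sign and 373 did neither. Where DESeq2 left the adjusted p undefined, only the sign was compared. The cause was not tested. circRNA.3020 turned to log2 -0.18 with SRPBM depth and -0.0048 at 10 reads. With 1 library left out its log2 ran from -0.22 to 0.28, that of circRNA.13386 from -0.51 to 9.62, circRNA.15972 from -1.26 to 0.071, circRNA.35818 from -7.17 to 6.54, circRNA.8273 from -6.56 to 0.058, circRNA.35358 from -0.049 to 0.81, the locus past Mir344i from -0.73 to 0.21 and the Lncppara locus from -3.63 to 0.0047. In the fits that gave 9.62, -7.17, 6.54 and -6.56, 1 group was left with 0 reads, so these sizes are not effect estimates.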
